A study of Rattus norvegicus with 32 samples.

Results

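Slc17a3, Cyp4b1, Serpina3a, Tent5b, Runx3, Kng2, Nuak2 and Arsj are 8 genes whose hippocampal RNA was higher in Gfap+/R237H rats than in wild-type (WT) littermates. The genes were grouped as non-immune, and this label was not checked against a list of immune genes. They were chosen by name with the difference between the genotypes already known, so that difference is described here and not tested. The 8 symbols cover 9 of the 23822 gene identifiers (IDs) measured, because Serpina3a stands for 2 of them. R237H rats carry 1 copy of a missense mutation in Gfap, which encodes the main intermediate filament of astrocytes, and are a germline model of Alexander disease on an outbred Sprague Dawley background, Crl:CD(SD). WT littermates carry no mutant copy. Hippocampus was taken at postnatal day 21 (P21) or 56 (P56) from both sexes, and each of the 32 rats gave 1 polyA-selected, stranded library. Every group held 4 rats, other than the females at P21, of which 5 were R237H and 3 WT.

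The 8 genes belong to unrelated families. Slc17a3 encodes an organic anion transporter of the SLC17 family known mainly from kidney, Cyp4b1 a cytochrome P450 monooxygenase that oxidizes fatty acids and foreign compounds and is best known from lung, and Arsj a member of the sulfatase family. Serpina3a belongs to the rodent cluster of serine protease inhibitors related to alpha-1-antichymotrypsin, an acute-phase protein that reactive astrocytes also make. Kng2 encodes a kininogen, the plasma precursor from which kallikreins release kinins, and kininogens also inhibit cysteine proteases. Runx3 is a DNA-binding factor of the runt family that pairs with Cbfb and is known for its roles in sensory neurons and in T and NK cells. Tent5b adds adenosines to RNA tails, and Nuak2 is a kinase related to AMPK. In this bulk tissue, more cells of a type and more RNA per cell cannot be told apart.

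As a check of the labels, the mutated gene Gfap was at 1832 to 5257 TPM (transcript abundance scaled for gene length and library depth) in the 17 R237H rats and at 290 to 584 TPM in the 15 WT rats. Library totals were 21580397 to 55544871 expected counts with a median of 46157271, and the 2 shallowest were R237H male replicate 4 at P56 and R237H male replicate 3 at P21. In 5 libraries the summed TPM of 10 choroid plexus markers was 924 to 7033, against 50.04 to 201 in the other 27. They were WT male replicate 2 and R237H male and female replicate 4 at P56, and WT male replicate 1 and WT female replicate 3 at P21. The 12 microglia and macrophage markers summed to 722 to 1158 TPM in R237H and 150 to 267 TPM in WT at P56, and to 500 to 697 TPM in R237H and 222 to 254 TPM in WT at P21. All 12 were above 0 in every library, and 9 of 12 in either sex at P56, 12 of 12 in males at P21 and 10 of 12 in females at P21 were higher in R237H at the false discovery rate (FDR) used below. The 4 erythroid markers matched were 4 of 4 lower in R237H of both sexes at P56, with sums of 74.0 to 145 TPM in R237H and 349 to 1793 TPM in WT, and sums of 477 to 1912 and 970 to 1844 TPM at P21. The 1 endothelial marker with a symbol, of 8 listed, was lower in R237H in all 4 comparisons, at 2.46 to 4.55 TPM against 4.02 to 5.40 TPM at P56 and 3.02 to 6.12 against 5.91 to 8.59 TPM at P21. The part of these cell types in the results below was not tested. The list of 15 T and NK cell markers had no ID with a symbol and gave no value. The younger and older rats have titles of different styles, and the labels do not say whether they were collected or processed together. A difference by age therefore cannot be told apart from one by collection, if there was one. All P21 males carry the same number in their titles. At P56, R237H male and female replicate 4 share the number 70, and R237H male and female replicate 3 share 69.

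Promoter windows of the genes are shown for the pair that share sequence, Kng2 and its relative Kng1, and for the members with most matches to known motifs, Serpina3a and Runx3. Each window is 300 bases, from 250 before to 50 after the transcription start, from the RefSeq table of build GRCr8. The Kng2 window lies at chr11:91418220-91418519 on the + strand and the Kng1 window at chr11:91340099-91340398 on the - strand. Capitals mark the bases that are equal between them when the windows are shifted by 155 bases.

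Kng2: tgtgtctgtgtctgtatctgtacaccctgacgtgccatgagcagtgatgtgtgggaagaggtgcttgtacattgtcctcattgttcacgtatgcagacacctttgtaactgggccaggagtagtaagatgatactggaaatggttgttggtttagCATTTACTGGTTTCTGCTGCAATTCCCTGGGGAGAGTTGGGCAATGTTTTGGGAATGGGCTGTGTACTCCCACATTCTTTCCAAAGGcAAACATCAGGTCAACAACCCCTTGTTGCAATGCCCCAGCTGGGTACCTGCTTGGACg

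Kng1: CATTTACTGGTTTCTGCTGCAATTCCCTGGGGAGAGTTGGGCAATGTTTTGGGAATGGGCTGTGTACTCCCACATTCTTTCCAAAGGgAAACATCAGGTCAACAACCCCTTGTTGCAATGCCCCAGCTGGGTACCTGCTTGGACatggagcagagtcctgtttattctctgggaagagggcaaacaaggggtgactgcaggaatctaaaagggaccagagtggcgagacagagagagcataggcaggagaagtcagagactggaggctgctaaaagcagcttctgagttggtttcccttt

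The windows share 143 of 145 overlapping bases (98.6%), with a longest run of 87. The 2 differences are C88G and G145A, with the Kng2 base first and positions counted from 1 at the 5′ end of the shared stretch. The Serpina3a window lies at chr6:128940650-128940949 on the + strand, and the table holds 1 gene of that symbol, which was not assigned to either ID. The first of 2 Runx3 windows lies at chr5:152644020-152644319 on the + strand. In these, capitals mark the motif matches.

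Serpina3a: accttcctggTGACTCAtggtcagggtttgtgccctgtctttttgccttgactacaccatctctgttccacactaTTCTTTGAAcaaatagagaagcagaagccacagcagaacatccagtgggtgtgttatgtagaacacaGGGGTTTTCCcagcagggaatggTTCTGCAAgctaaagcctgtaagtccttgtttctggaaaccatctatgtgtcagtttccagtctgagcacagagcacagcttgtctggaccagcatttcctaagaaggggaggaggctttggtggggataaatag

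Runx3: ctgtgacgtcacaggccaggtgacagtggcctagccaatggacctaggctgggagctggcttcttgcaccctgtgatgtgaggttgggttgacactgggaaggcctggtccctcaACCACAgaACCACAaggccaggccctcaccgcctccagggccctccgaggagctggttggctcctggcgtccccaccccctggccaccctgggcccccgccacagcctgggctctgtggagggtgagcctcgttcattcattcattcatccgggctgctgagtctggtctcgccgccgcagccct

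Both strands were searched for 6 motifs, the AP-1 site TGANTCA, the STAT site TTCNNNGAA, the NF-kB site (GGG, any 2 bases, TTTCC), the C/EBP site TTGCNNAA, the RUNX site TGTGGT and the TATA box TATAAA. The Serpina3a window held the first 4 of these, at positions -240, -175, -108 and -85 from the start. Among 33469 promoters of the same length these were found in 7.33%, 8.87%, 1.53% and 10.6%. The Runx3 window held 2 RUNX matches, at -135 and -127, a motif found in 17.3% of promoters, and Arsj held 1. Tent5b, Kng2 and Kng1 each held 1 C/EBP match, the one in Kng2 and Kng1 lying in their shared stretch, and Nuak2 held 1 TATA match on the other strand, a motif in 14.2% of promoters. No match was found for Slc17a3, Cyp4b1 or the other Runx3 window. A match describes letters only, and binding of these factors was not measured.

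At P56 all 9 IDs were higher in every R237H rat than in any WT rat of the same sex, as were 24.2% of all genes tested in males and 22.2% in females. At P21 this held for 7 of the 9 IDs in males and 8 in females, where 17.1% and 14.6% of the genes tested did so. By edgeR's quasi-likelihood test at an FDR under 0.01, 9 of 9 IDs were higher in R237H males, where 16.8% of the 15097 genes tested were higher, and 9 of 9 in R237H females, where 17% of 15033 were. At P21, 6 of the 6 IDs that passed the filter on low counts were higher in R237H males (12.4% of 14953 genes were), and 5 of 8 in R237H females (7.06% of 15149). Serpina3a ENSRNOG00000048191, Runx3 and Kng2 did not pass that filter in P21 males, and Kng2 did not in P21 females. The other 3 IDs tested in P21 females, Serpina3a ENSRNOG00000029949, Runx3 and Arsj, did not pass the FDR. Of the 5 that did, Serpina3a ENSRNOG00000048191 lost the call in 6 of the 8 fits that left out 1 rat. Nothing is read from these shares, because the genes were chosen for this difference. The word extreme suits 7 of the 9 IDs: among all genes tested, ordered by log2 fold change, 6 of those 7 stood between 2 and 16 in P56 males, and Tent5b stood 68. Nuak2 stood 456 and Arsj 375, with log2 fold changes of 2.59 and 2.80.

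**Figure D1:**
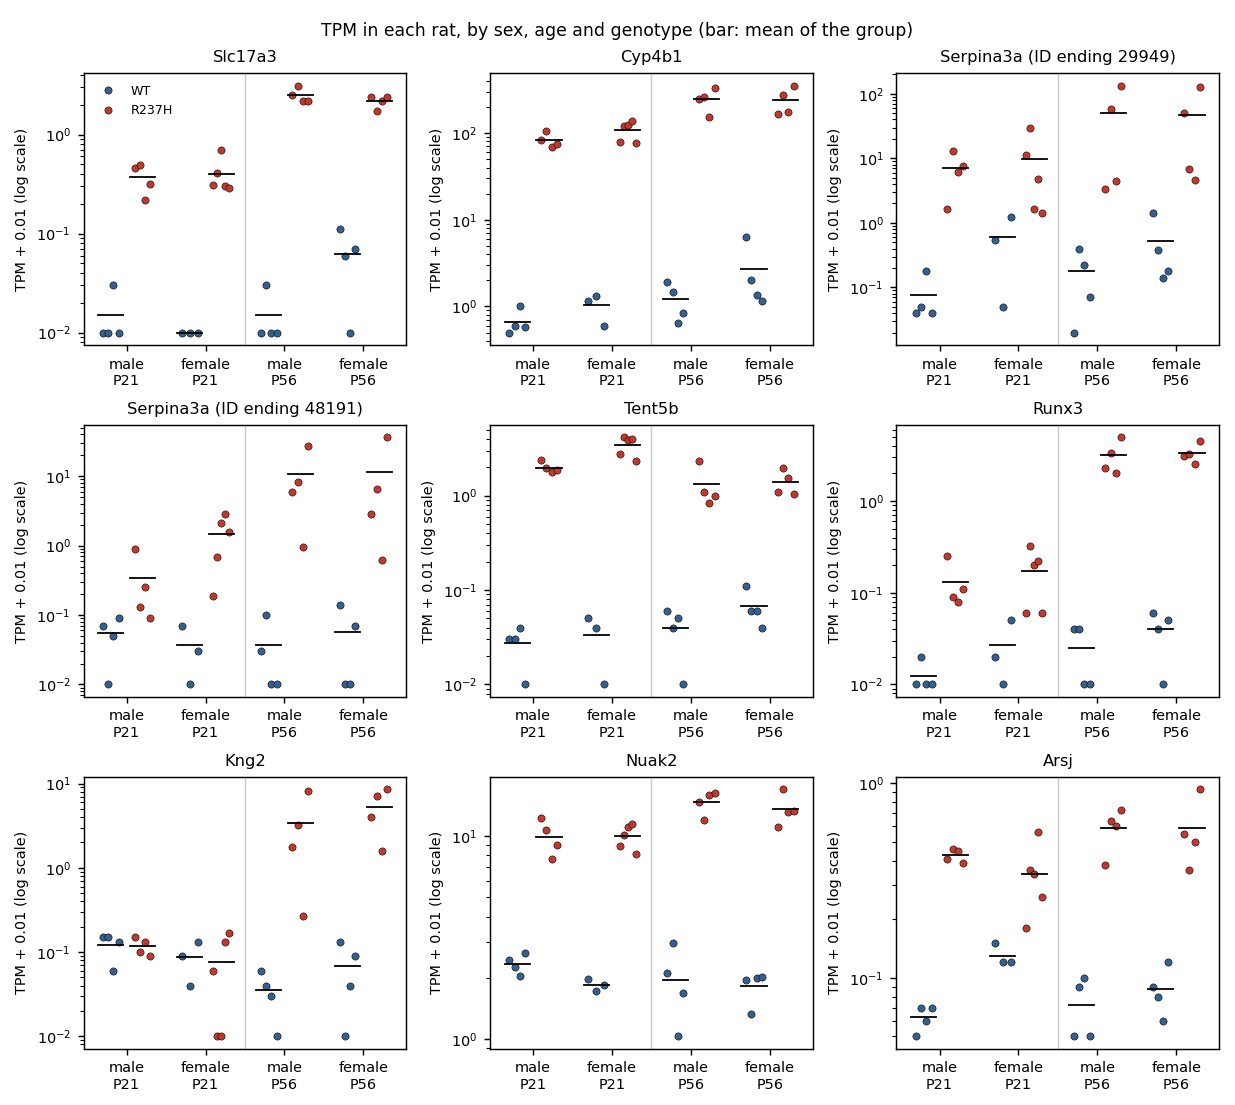
TPM + 0.01 on a log axis (y) in each of the 32 rats for the 9 IDs, by sex and age (x), with WT in blue, R237H in red and the group mean as a bar. R237H rats at P56 lie above every WT rat of that age in all 9 panels, while at P21 Kng2 overlaps in both sexes and Serpina3a ENSRNOG00000048191 in males.

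Slc17a3, the transporter (ENSRNOG00000032745), was close to absent from WT hippocampus. At P56 it was at 2.50, 3.11, 2.18 and 2.18 TPM in R237H males and at 0, 0.02, 0 and 0 TPM in WT males. In females of that age it was at 2.40, 1.71, 2.19 and 2.39 TPM in R237H and 0.10, 0.05, 0 and 0.06 TPM in WT. At P21 the R237H rats held less, 0.45, 0.48, 0.21 and 0.31 TPM in males and 0.30, 0.40, 0.68, 0.29 and 0.28 TPM in females, and 6 of 7 WT rats were at 0. The WT males gave 1 count in all at each age, against 527 in R237H males at P56 and 74 at P21. The ratio of pooled CPM (counts scaled to library size) was 508 at P56 (95% counting interval 90.7 to 20089) and 90.0 at P21 (15.7 to 3601), intervals that cover counting error only. In P21 females, WT gave 0 counts and R237H 124, which is at least 22.3-fold higher when 3 counts over the WT group are taken as the floor. In P56 females, where WT gave 10 counts, the log2 fold change was 5.35 ± 0.48 (SE).

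Cyp4b1, the monooxygenase (ENSRNOG00000055078), was the most abundant member by TPM in all 4 R237H groups. At P56 it was at 246, 259, 154 and 333 TPM in R237H males and 1.90, 1.44, 0.64 and 0.83 TPM in WT males, and at 167, 276, 175 and 352 TPM in R237H females and 6.26, 2.01, 1.36 and 1.16 TPM in WT females. At P21 it was at 82.2, 106, 69.7 and 74.8 TPM in R237H males and 78.6, 120, 123, 137 and 77.0 TPM in R237H females. WT rats of that age held 0.49 to 1.32 TPM. The genotypes did not overlap at either age, and the lowest R237H rat stood far above the highest WT rat. The log2 fold changes were 7.34 ± 0.32 (males, P56), 6.18 ± 0.53 (females, P56), 6.98 ± 0.19 (males, P21) and 6.76 ± 0.35 (females, P21; SE). WT female replicate 1 at P56, at 6.26 TPM, was the highest of all WT rats, and without it the value for females of that age was 6.99. Among WT rats at P56 the same library was also the highest for Slc17a3 (0.10 TPM), Tent5b (0.10), Runx3 (0.05) and Kng2 (0.12). It was the highest for the Serpina3a IDs too (1.41 and 0.13 TPM), but not for Nuak2 or Arsj.

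The 2 Serpina3a IDs were uneven between R237H rats. At P56, ENSRNOG00000029949 was at 3.38, 58.7, 4.37 and 134 TPM in R237H males and at 50.1, 6.74, 4.62 and 126 TPM in R237H females, a range of 39.6-fold and 27.2-fold within a group. WT rats of that age held 0.01 to 1.41 TPM. ENSRNOG00000048191 was lower and as uneven, at 5.94, 8.20, 0.95 and 27.4 TPM in R237H males and 2.85, 6.44, 0.61 and 36.2 TPM in R237H females, with 0 to 0.13 TPM in WT. Replicate 4 of each sex was the highest for both IDs and replicate 3 of each sex the lowest for the second. The male and female of replicate 4 share a title number, as do those of replicate 3. The replicate 4 libraries are the 2 R237H libraries with summed choroid plexus markers of 924 and 1969 TPM. In the WT male library with 7033 TPM of these markers the IDs were at 0.39 and 0.09 TPM.

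At P21 the first Serpina3a ID was at 1.66, 12.9, 6.18 and 7.65 TPM in R237H males and 11.3, 30.0, 1.66, 4.83 and 1.43 TPM in R237H females, against 0.03 to 1.21 TPM in WT. The second was at 0.87, 0.12, 0.24 and 0.08 TPM in R237H males and 0.18, 0.67, 2.12, 2.87 and 1.55 TPM in R237H females, with WT males at 0 to 0.08 TPM, so that males of this age overlapped. The IDs did not hold a fixed ratio. The first divided by the second ranged from 0.569 to 108 over the 17 R237H rats and was above 1 in 14 of them. All counts of both IDs were whole numbers, so no division of reads between genes is visible in them. Means with SD were 50.1 ± 61.6 and 46.8 ± 56.6 TPM for the first ID in P56 R237H males and females (n = 4 each), where the SD exceeds the mean.

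Tent5b, the poly(A) polymerase (ENSRNOG00000056153), was the member that stood higher in the younger R237H rats. At P21 it was at 2.35, 1.93, 1.77 and 1.84 TPM in R237H males and 2.76, 4.12, 3.84, 4.00 and 2.33 TPM in R237H females, while WT rats held 0 to 0.04 TPM. At P56 it was at 2.32, 1.09, 0.83 and 0.99 TPM in R237H males and 1.08, 1.95, 1.53 and 1.02 TPM in R237H females, while WT rats held 0 to 0.10 TPM. The log2 fold change was 6.65 ± 0.32 in males and 7.26 ± 0.49 in females at P21, and 5.10 ± 0.61 and 4.36 ± 0.36 at P56. In 9 of the 29 rats with counts the count was not whole, so a part of its reads was shared with another gene.

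Runx3, the runt factor (ENSRNOG00000054217), was mainly a P56 transcript. It was at 2.29, 3.30, 2.0 and 4.92 TPM in R237H males and 3.06, 3.26, 2.52 and 4.52 TPM in R237H females at P56, and no WT rat of that age exceeded 0.05 TPM. At P21 the R237H males held 0.24, 0.08, 0.07 and 0.10 TPM and the R237H females 0.05, 0.31, 0.19, 0.21 and 0.05 TPM, and WT rats 0 to 0.04 TPM. The younger groups did not overlap, but they rest on few reads, 42 counts against 1 in males (ratio 51.1, 95% counting interval 8.68 to 2064) and 88 against 4 in females. At P56 the log2 fold change was 7.32 ± 0.61 in males and 6.43 ± 0.44 in females.

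Kng2, the kininogen (ENSRNOG00000065935), was above 1 TPM in 7 of the 8 R237H rats at P56 and in no other rat. At P56 it was at 1.78, 3.21, 0.26 and 8.21 TPM in R237H males and 4.04, 7.07, 1.58 and 8.54 TPM in R237H females, and WT rats held 0 to 0.12 TPM. At P21 R237H males held 0.14, 0.09, 0.12 and 0.08 TPM and WT males 0.14, 0.14, 0.05 and 0.12 TPM, with 15 and 17 counts in all. R237H females of that age held 0.05, 0, 0, 0.12 and 0.16 TPM and WT females 0.08, 0.03 and 0.12 TPM, with 12 and 8 counts, so a difference at P21 was not detectable at this depth. At P56 the log2 fold change was 6.70 ± 1.15 in males and 6.25 ± 0.71 in females. It was 5.79 in males without R237H male replicate 4 and 6.95 in females without WT female replicate 1. Replicate 3 of each sex, which share a title number, were the lowest R237H rats of their groups, at 0.26 and 1.58 TPM, and replicate 4 of each sex the highest, as for Serpina3a ENSRNOG00000048191. Of 28 rats with counts, 9 had counts that were not whole, and so did 9 of the 18 with counts for Kng1, so reads were divided between near-identical genes and the split between these IDs is uncertain.

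Kng1 (ENSRNOG00000030387) went with Kng2. It was at 1.59, 3.37, 0.06 and 8.15 TPM in R237H males and 3.62, 7.66, 1.24 and 7.56 TPM in R237H females at P56, and Kng2 divided by Kng1 was 0.923 to 1.27 in these females and 0.953 to 4.33 in these males, highest in replicate 3, where both were near 0. WT rats of that age held 0 to 0.21 TPM and P21 rats of either genotype 0 to 0.09 TPM. The same male replicate 3 was the lowest for both.

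**Figure D2:**
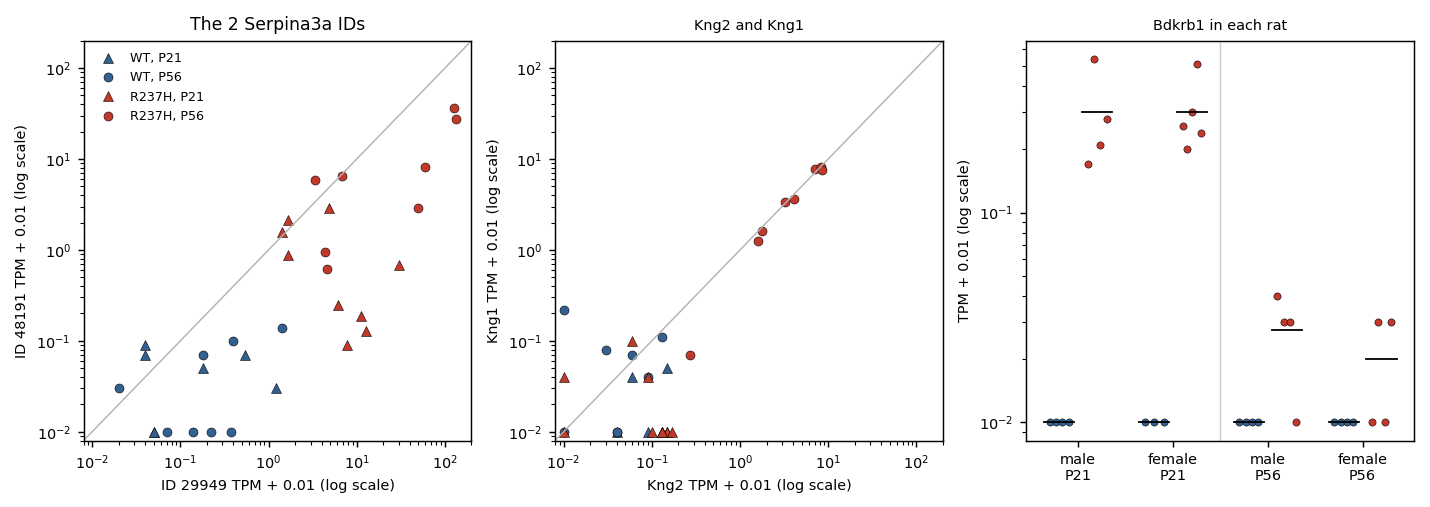
The 2 Serpina3a IDs (left) and Kng2 with Kng1 (middle), each rat as 1 point on log axes of TPM + 0.01 with the line of equal values, and Bdkrb1 (right) by sex and age. R237H rats scatter on both sides of the line for Serpina3a, P56 R237H rats with over 1 TPM lie near it for the kininogens, and Bdkrb1 is higher at P21 than at P56 in R237H.

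Nuak2, the kinase (ENSRNOG00000000034), and Arsj, the sulfatase (ENSRNOG00000000001), were measured in every WT rat and changed least. Nuak2 was at 11.03 to 16.9 TPM in R237H and 1.02 to 2.94 TPM in WT at P56, and at 7.71 to 12.2 TPM in R237H and 1.72 to 2.63 TPM in WT at P21. The genotypes did not overlap, and the log2 fold changes were 2.59 ± 0.20, 2.60 ± 0.16, 2.09 ± 0.15 and 2.49 ± 0.16 in P56 males, P56 females, P21 males and P21 females. Arsj was rarer, at 0.35 to 0.92 TPM in R237H and 0.04 to 0.11 TPM in WT at P56, and at 0.17 to 0.55 TPM in R237H and 0.04 to 0.14 TPM in WT at P21. Its log2 fold changes in the same order were 2.80 ± 0.42, 2.59 ± 0.39, 2.94 ± 0.26 and 1.55 ± 0.41, of which the last, in P21 females, did not pass the FDR.

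**Figure D3:**
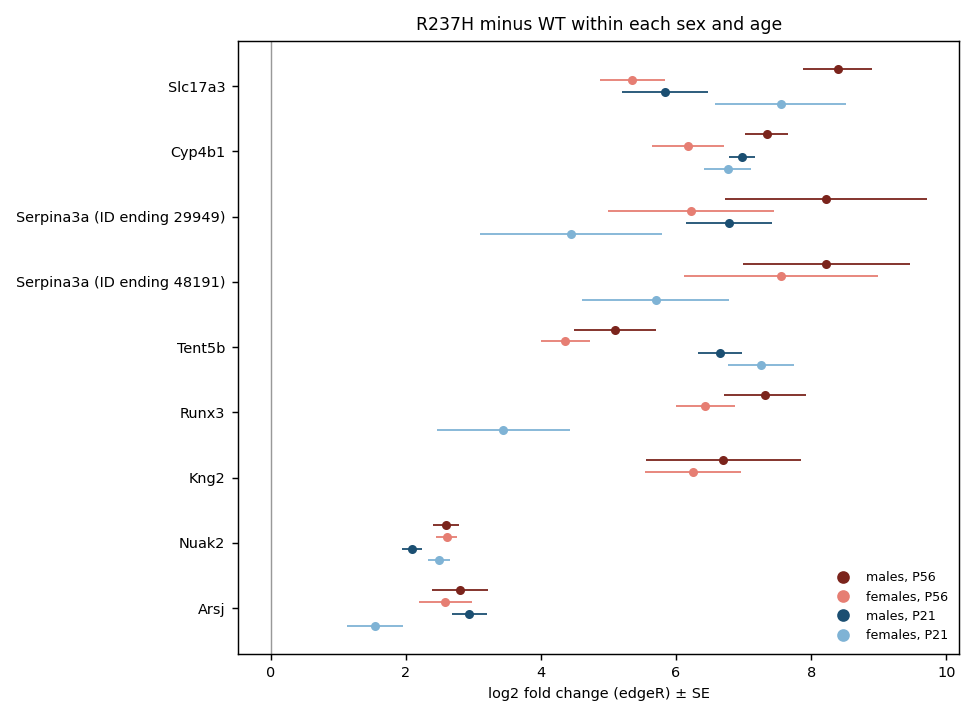
Log2 fold change of R237H over WT with its SE (x) for each ID (y) in the 4 groups by sex and age, where that group passed the filter on low counts. Nuak2 and Arsj stand between 1.55 and 2.94 and the other IDs from 3.44 to 8.39, and the Slc17a3 values depend on how WT counts of 0 or 1 are treated.

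In the order of mean TPM in P56 R237H males, Cyp4b1 (248 ± 73.7 TPM, SD, n = 4) came first, then Serpina3a ENSRNOG00000029949 (50.1 ± 61.6), Nuak2 (14.7 ± 1.93), Serpina3a ENSRNOG00000048191 (10.6 ± 11.6), Kng2 (3.37 ± 3.45), Runx3 (3.13 ± 1.32), Slc17a3 (2.49 ± 0.44), Tent5b (1.31 ± 0.68) and Arsj (0.58 ± 0.15). Females of that age gave the same order. From Serpina3a ENSRNOG00000029949 down to Slc17a3, neighbours in the male order differed by less than the larger of their SDs. At P21 Tent5b moved up to the fourth place in both sexes and Runx3 and Kng2 fell to the last 2.

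Age was the comparison that the choice of genes did not use directly, though the P56 R237H rats in it are the rats whose high levels put the genes on the list. Serpina3a ENSRNOG00000048191, Runx3 and Kng2 in males and Kng2 in females passed the filter on low counts only through those rats, so they had to differ by age, and their values are given with no test. Of the other 6 IDs in R237H males, 2 were higher at P56 than at P21 (13.1% of 15370 genes were) and 0 lower (9.58% were). They were Slc17a3 (log2 fold change 2.55 ± 0.31 SE, FDR 1.02e-05) and Cyp4b1 (1.36 ± 0.21, FDR 1.07e-04). Of the other 8 in R237H females, 2 were higher, where 9.29% of 15504 genes were, namely Slc17a3 (2.30 ± 0.36, FDR 2.81e-04) and Runx3 (4.09 ± 0.47, FDR 1.30e-05). The untested log2 fold changes were 4.70 ± 0.87 for Serpina3a ENSRNOG00000048191, 4.39 ± 0.47 for Runx3 and 4.67 ± 0.79 for Kng2 in males, and 6.28 ± 0.68 for Kng2 in females. The first was 6.10 without R237H male replicate 1 at P21 and 3.63 without R237H male replicate 4 at P56, Runx3 in males was 5.02 without R237H male replicate 1 at P21, and Kng2 was 3.75 in males without R237H male replicate 4 at P56 and 6.97 in females without R237H female replicate 5 at P21. Tent5b was lower at P56 in R237H females, by a log2 fold change of -1.51 ± 0.28 (FDR 8.24e-04, 6.51% of genes lower), and at -0.82 ± 0.37 in males it did not pass (FDR 0.0935).

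Nuak2 and Arsj gave no call by age in either sex of R237H rats, with log2 fold changes of 0.24 to 0.59. All FDR values here are from edgeR's quasi-likelihood test. Without the IDs that have no test, the numbers higher and lower were 2 and 0 in males and 2 and 1 in females. Counting them as well, the numbers were 5 and 0 in males and 3 and 1 in females. These larger totals were the same without the 5 libraries rich in choroid plexus markers. As the added IDs had to differ by age, that is no support for the result. The summed microglia and macrophage markers were also higher at P56 than at P21 in R237H rats, as given above. So was the sum of the 6 astrocyte markers matched, Gfap among them, at 4724 to 6757 TPM against 3163 to 4254 TPM. Against WT, 1 of these 6 was higher and 2 lower in R237H of either sex at P56. The sums of neuron and of meningeal and vascular fibroblast markers overlapped between the ages. The part of any of these cell types in the change by age was not tested.

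In WT rats 0 of 9 IDs passed the test by age in either sex, where 8.43% of genes in males and 2.59% in females did in either direction. At an unadjusted p under 0.05 there was 1 in males and 3 in females, and the likelihood-ratio test called 1 and 0. The 9 include the IDs that passed the filter only through the P56 R237H rats, and several IDs gave WT counts near 0. For those a change with age in WT could hardly be called, so nothing is read from the 0 beside the shares. Cyp4b1 gave the smallest p in males, with a log2 fold change of 1.02 ± 0.32 (FDR 0.0351), and in females it was at 1.52 ± 0.53 (FDR 0.0921). Slc17a3 gave the smallest p in WT females, at 4.49 ± 1.42 (FDR 0.0718), with 0 counts at P21.

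**Figure D4:**
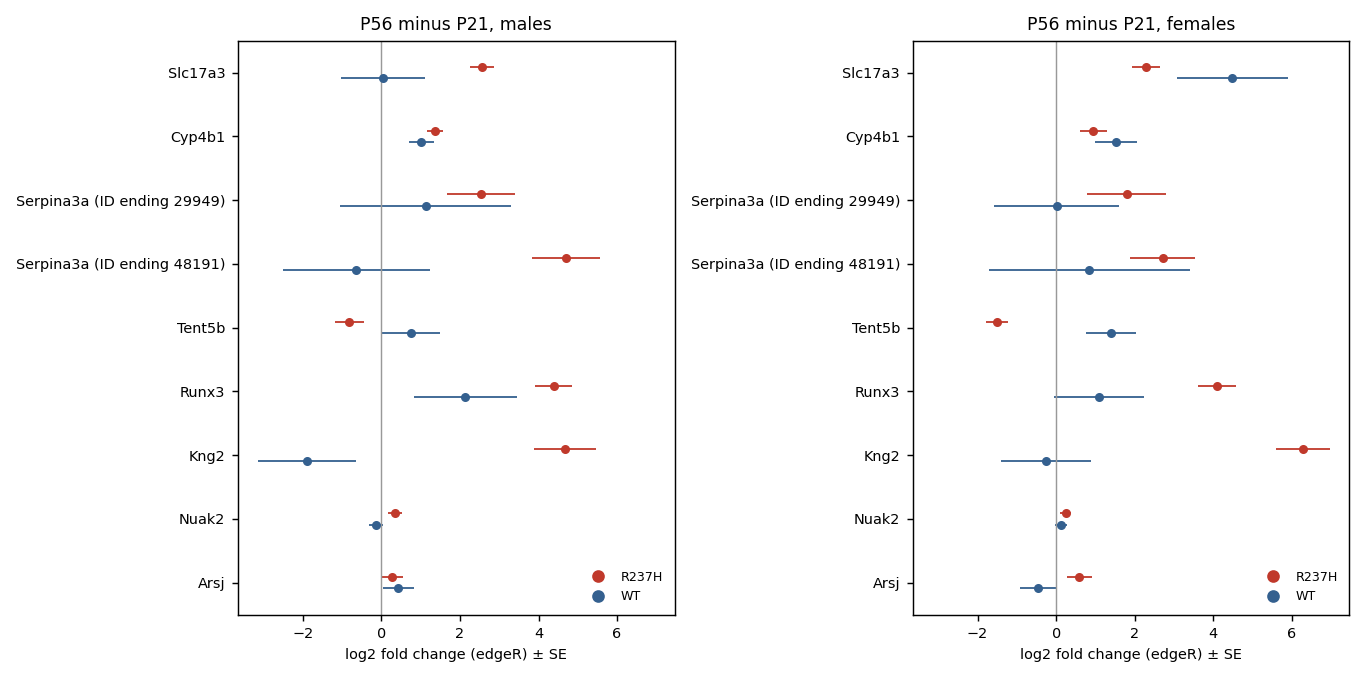
Log2 fold change of P56 over P21 with its SE (x) for each ID (y) in R237H (red) and WT (blue), males on the left and females on the right. Runx3 and Kng2 lie above 4 in R237H of both sexes (Runx3 in males and Kng2 in both without a test), Tent5b lies below 0 in R237H, and the WT values of rare transcripts have wide errors.

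Whether the difference between genotypes itself differed between the ages was tested by an interaction in the 16 rats of each sex. In males 10.1% of all genes were called in either direction. The 3 IDs that passed the filter only through the P56 R237H males have no test here either. Their log2 differences were 6.58 ± 1.47 for Kng2 (5.66 without R237H male replicate 4 at P56), 5.34 ± 2.21 for Serpina3a ENSRNOG00000048191 and 2.25 ± 2.86 for Runx3. Of the other 6, 0 passed by edgeR's test, 0 had an unadjusted p under 0.05, and the likelihood-ratio test called 2 of all 9. The count of 2 is over all 9 and so includes the 3 without a test, and nothing is read from it. In females, leaving Kng2 aside, 0 of 8 passed (2.15% of genes did in either direction) and 1 had an unadjusted p under 0.05. The likelihood-ratio test called 2 of all 9, with Kng2 counted. Tent5b was at -2.90 ± 0.68 (FDR 0.0177) and Runx3 at 3.00 ± 1.56 (FDR 0.270), and Kng2, without a test, at 6.53 ± 1.54, so the interaction was poorly resolved where WT counts were near 0.

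The sexes were compared in the same way. The interaction of sex and genotype called 0 of 8 IDs at P21 and 0 of 9 at P56, and 0 of all 15361 and 15419 genes tested. At each age 1 ID had an unadjusted p under 0.05, and the likelihood-ratio test called 0 as well. Those were Arsj at P21, with a female minus male difference of -1.40 ± 0.49 in log2 fold change, and Slc17a3 at P56, at -3.01 ± 0.98. The latter rests on 10 counts in WT females against 1 in WT males. Of those 10, 5 were in WT female replicate 1.

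Relatives of the members could be followed for 17 genes with a symbol, of 93 listed, and serpins and AMPK-related kinases had none. Of those tested, 7 of 14 were higher and 0 lower in R237H males at P56, 10 and 1 of 15 in females at P56, 8 and 1 of 14 in males at P21, and 3 and 0 of 16 in females at P21. Kng1, among those higher in females at P56, passed the filter on low counts only through the P56 R237H rats, so its call is no support. Symbols were available mainly for genes that changed, so these counts cannot be set against the shares for all genes, of which 11.1%, 11.1%, 4.82% and 0.753% were lower. The same limit holds for the median log2 fold changes of these relatives, which were 0.88, 1.09, 0.66 and 0.645. Of the transporters, Slc17a9, which loads nucleotides into vesicles, rose in males at P56 (2.29 ± 0.27, FDR 1.07e-04), females at P56 (2.25 ± 0.22, FDR 2.25e-05) and males at P21 (1.16 ± 0.22, FDR 0.00180). Slc17a2, a near relative of Slc17a3, was at 0.04 to 0.32 TPM in R237H and 0 to 0.05 TPM in WT at P56.

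Of the cytochrome relatives, Cyp4f1 fell in females at P56 (log2 fold change -1.02 ± 0.17, FDR 8.15e-04), and in males of that age it was at -0.84 ± 0.30 (FDR 0.0458). Cyp4v3, a fatty acid hydroxylase, rose in males at P21 by 0.47 ± 0.08 (FDR 0.00114). Tent5a and Tent5c, relatives of Tent5b, rose at P56 in both sexes, Tent5a by 1.93 ± 0.49 in males and 2.26 ± 0.16 in females, and Tent5c by 2.14 ± 0.31 and 1.83 ± 0.15. Unlike Tent5b, Tent5c was also higher at P56 than at P21 in R237H (1.09 ± 0.25, FDR 0.00272 in males; 1.001 ± 0.20, FDR 0.00146 in females), while Tent5b had negative estimates in both sexes. The difference between these genes was not tested.

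Of the runt factors, Runx1, a regulator of blood cell formation and of microglia, rose in males at P56 (2.55 ± 0.34, FDR 2.59e-04), females at P56 (2.34 ± 0.41, FDR 0.00117) and males at P21 (1.97 ± 0.30, FDR 4.13e-04). It was at 1.66 to 2.70 TPM in P56 R237H rats and 0.14 to 0.64 TPM in WT, and at 0.43 to 1.61 and 0.11 to 0.30 TPM at P21. Runx2, known from bone, rose in males at P21 (0.75 ± 0.12, FDR 7.21e-04), with 0.09 ± 0.23 in P56 males. Cbfb, the shared partner, rose at P56 by 1.01 ± 0.14 in males and 0.88 ± 0.13 in females.

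Within the kinin system, the receptor and the kininogens were high at different ages. Bdkrb1, the inducible kinin receptor B1, was at 0 counts in all 15 WT rats. It was at 0.16 to 0.53 TPM in the 9 R237H rats at P21 and at 0 to 0.03 TPM in the 8 at P56, where the kininogens were high. At P21 this is at least 17.8-fold higher than WT in males and at least 11.9-fold in females, with 3 counts over the WT group as the floor. In females Bdkrb1 passed the filter on low counts only through the P21 R237H rats, so its calls there, 1 of the 3 relatives higher at P21, are no support, and in males it did not pass the filter. Serping1, the C1 inhibitor that also blocks kallikrein, rose in all 4 comparisons by 3.17 to 4.09 and was at 155 to 254 TPM in P56 R237H rats against 6.32 to 21.2 TPM in WT. Ace, which degrades kinins, did not pass in any comparison and was highest, at 67.1 TPM, in the WT male library with most choroid plexus markers. Cpm, a carboxypeptidase that trims kinins, fell in males at P21 (-0.32 ± 0.06, FDR 0.00174).

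Among the sulfatases, Arsi, the nearest relative of Arsj, rose at P21 by 2.74 ± 0.18 in males (FDR 3.64e-07) and 2.75 ± 0.40 in females (FDR 0.00103), and at P56 by 0.85 ± 0.21 in females. In R237H it was lower at P56 than at P21 in both sexes (-1.53 ± 0.21, FDR 3.87e-05 in males; -1.74 ± 0.29, FDR 2.91e-04 in females). Its genotype difference was smaller at P56 in males by the interaction test (-2.28 ± 0.31, FDR 1.34e-04). In females that test called 0 relatives lower, so Arsi did not pass as lower there. It called 2.15% of all genes in females and 10.1% in males. Mean Arsi in females was 5.18 TPM in R237H and 0.82 TPM in WT at P21, and 1.825 and 0.83 TPM at P56. Whether the sexes differ in this was not tested. The lysosomal sulfatase Galns rose at P56 by 1.12 ± 0.21 in males and 1.02 ± 0.16 in females. Sulf1, which trims heparan sulfate, rose in females at P56 (2.10 ± 0.25, FDR 8.94e-05), with 0.62 ± 0.70 in males.

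**Figure D5:**
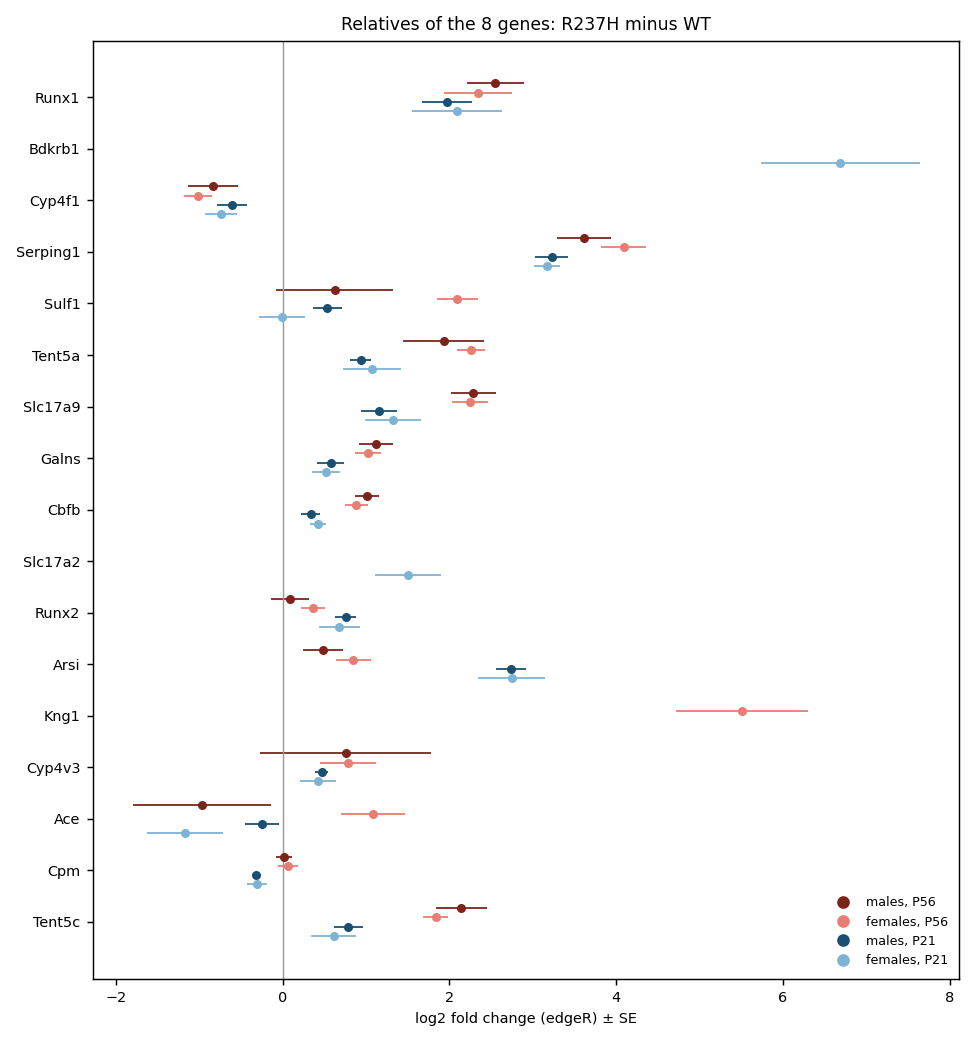
Log2 fold change of R237H over WT with its SE (x) for the 17 relatives with a symbol (y) in the 4 groups by sex and age, where tested. Serping1 stands at 3.17 to 4.09 in all 4 groups, Arsi is higher at P21 than at P56, and Cyp4f1 lies below 0 in all 4.

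Within the 17 R237H rats, likeness was measured as Pearson's r of log2 CPM after the mean of each sex and age group was subtracted, over 3057 genes with a symbol and a mean of at least 50 counts (3058 for Arsj). Some of these rats share a title number, and the values are a description with no test. Symbols were available mainly for genes that changed between the genotypes, so the genes searched do not represent all genes or cell types. The highest of so many r values over 17 rats can also be high by chance alone. Without the 2 rats farthest from the median of the member, the r of the gene that ranked first for each member lay between 0.60 and 0.91. Cyp4b1 was most like Ifitm2 (r = 0.94, Spearman 0.94), an interferon-inducible membrane protein, then Mmp19 (0.93) and Spp1 (0.93), the gene for osteopontin. Arsj was most like Itgax (0.93), an integrin chain of myeloid cells, and Runx3 most like Lsp1 (0.90), a leukocyte actin-binding protein. The Serpina3a IDs had different partners, Nudt4 (0.85) and Il1r1 (0.81), a receptor for interleukin-1, for the first and Pcgf5 (0.90) and Angptl2 (0.89) for the second. Slc17a3 was most like Irak4 (0.85), Kng2 like Cdv3 (0.87), Nuak2 like the amino acid transporter subunit Slc3a2 (0.85), and Tent5b like Rubcn (0.70).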

How the data were processed

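Hippocampal RNA of 32 rats was sequenced as stranded polyA libraries. The authors used bcl2fastq 2.20.0.422 for base calls, Skewer for trimming, STAR for alignment and RSEM for quantification. They deposited RSEM's expected counts, which split ambiguous reads over genes (5.68% of values were not whole), and its TPM values. The genome build and annotation are not given in the sources used here. Other tables hold the authors' own fold changes and FDR values, of which the name column alone was used: it gave a symbol to 3289 of 23822 IDs, selected for small FDR, and with it the IDs of the members and lists, which were chosen with earlier results of these data known. Replicates are separate rats, numbered in accession order.

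After rounding of the expected counts, edgeR's quasi-likelihood F-test was run (edgeR 4.0.16, R 4.3.3, filterByExpr, TMM, Benjamini-Hochberg FDR under 0.01 over all genes tested), within each sex and age, or as contrasts of 4 groups for age and the interactions. SE values were derived from the log2 fold change and its F statistic. The tests were checked on simulated data. Changes were planted only in genes with a mean of at least 50 counts, so rarer transcripts were not covered. Totals were 21580397 to 55544871 counts per library. Counting intervals are at 95% and floors at 3 counts, and both cover counting error only. Genes named are all members, up to 4 relatives per family by smallest FDR at P56 and the nearest relatives, and 3 most alike genes per member. Some listed relatives are not reported here. Promoters came from RefSeq (GRCr8). Tables and figures were made with Python 3.11.15, pandas 2.3.3, numpy 2.4.6 and matplotlib 3.10.9. Other settings tried were RLE factors, no filter, a mean of at least 10 counts, the likelihood-ratio test, DESeq2 1.42.0 for members, log2(TPM + 0.1) and log2(TPM + 1), one model of all 32 rats, an FDR under 0.05, a replicate block by title number, and omission of each rat in turn. Leaving out the 5 libraries over 500 TPM of choroid plexus markers was chosen after seeing the data.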

Additional observations from a re-analysis of the deposited data

Results flagged for a closer look

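In groups of 4 or 5 rats, 7 of 63 sets of TPM values held a rat far from the others (Dixon's ratio). For normally distributed values chance gives about 1 in 20. TPM values near 0 are not so distributed, and a single count beside rats at 0 always gives the largest ratio, so the 7 are not set against that rate. Serpina3a ENSRNOG00000048191 was at 36.2 TPM in R237H female replicate 4 at P56, a library rich in choroid plexus markers (1969 TPM), against 0.61 to 6.44 TPM in the other 3. The other 6 were WT rats. Cyp4b1 was at 6.26 TPM in WT female replicate 1 at P56, and Nuak2 was low, at 1.32 TPM, in WT female replicate 2 at P56. Serpina3a ENSRNOG00000029949 was at 0.17 TPM in WT male replicate 3 at P21. Slc17a3 was at 0.02 TPM in WT male replicate 2 at P56 and at 0.02 TPM in WT male replicate 3 at P21, and Runx3 at 0.01 TPM in WT male replicate 2 at P21, each a single count beside rats at 0.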

How the results depend on the processing

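No member log2 fold change between genotypes, and none called by age or interaction, changed direction under any alternative. The directions of relatives and of values not called were not followed. The call depends on the test in 5 counts. Of relatives called in females at P21 (3), there were 8 at an FDR under 0.05, 7 by the likelihood-ratio test and 3 to 4 with each rat left out. Of members called in females at P21 (5), there were 8 by the likelihood-ratio test and 4 to 6 with a rat left out. Of members with an interaction of age and genotype in females (0, with Kng2 counted), there were 2 at an FDR under 0.05, 2 by the likelihood-ratio test and 0 to 1 with a rat left out, 1 without R237H female replicate 3 at P56. In males (1, Kng2, which passed the filter only through the P56 R237H rats and so has no test), there were 2 by the likelihood-ratio test, 0 without the libraries rich in choroid plexus markers, and 0 to 1 with a rat left out, 0 without R237H male replicate 4 at P21, WT male replicate 1, 2 or 4 at P21 or WT male replicate 4 at P56. Of members called by age in WT males (0), 1 passed at an FDR under 0.05 and 1 by the likelihood-ratio test. With a rat left out, members called were 9 to 9 in males and 8 to 9 in females at P56, 6 to 6 in males at P21, and 5 to 6 in males and 4 to 5 in females by age in R237H. The ranges by age count the IDs without a test as well, which had to differ. Single rats moved some called fold changes by over 1.5 times, and they are given here as log2 values. At P56, without replicate 4 of the R237H rats of that sex, Serpina3a ENSRNOG00000029949 went from 8.22 to 7.09 in males and from 6.23 to 5.40 in females, and ENSRNOG00000048191 from 8.22 to 7.16 and from 7.55 to 5.84. Without WT female replicate 1 at P56 they were 7.56 and 8.77 in females, and without WT female replicate 2 the first lost its call (6.12). Without WT male replicate 2 at P56, ENSRNOG00000048191 was 9.98 and Slc17a3 9.97 in males. Without WT male replicate 3 at P21, ENSRNOG00000029949 went from 6.79 to 7.52 and Slc17a3 from 5.84 to 7.31. In females at P21, ENSRNOG00000048191 went from 5.70 to 6.90 without WT female replicate 1 and lost its call without that rat, WT female replicate 2 or 3, or R237H female replicate 3, 4 or 5. On log2(TPM + 0.1) and log2(TPM + 1) scales the fold changes of rare members were smaller, as a pseudocount makes them: Slc17a3 in P56 males went from 8.39 to 4.62 and 1.79. The title number did not pair the rats in all comparisons (correlation of deviations of same-numbered rats in P56 males 0.222, 0.073, -0.015 and -0.017), and P21 males share 1 number, so no block could be fitted there. With the replicate block, members called were 9 in males at P56, 9 in females at P56 (1 residual degree of freedom) and 4 in females at P21. Depth limits Kng2, Runx3 and Slc17a3 at P21 and in WT, where groups gave 0 to 124 counts.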

Other observations

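Cyp4v3, a relative of Cyp4b1 singled out after its values were seen, was at 0.53 TPM in R237H male replicate 4 and 0.12 TPM in WT male replicate 4 at P56, which carry the same number in their titles, and at 21.9 to 23.2 TPM and 9.0 to 12.7 TPM in the other 3 males of each genotype.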
